A study of Homo sapiens with 40 samples.

Results

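MKNK1 and MKNK2 encode the MNK kinases MNK1 and MNK2. They are described here through their 2 rows, among 55765 gene symbols, in the read count files of 40 RNA-Seq libraries in 12 groups. The genes were taken by name, and the pair was chosen by the MKNK2 values of the gradient fractions, in which the ratio of polysomal to subpolysomal MKNK2 mRNA fell after CNOT1 siRNA. Those values are therefore given as description, without a test. Both genes passed the filter on low counts in each of the 3 experiments.

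MNK1 and MNK2 are serine/threonine kinases at the end of the ERK and p38 MAP kinase cascades. They dock on eIF4G, the scaffold of the cap-binding complex, and from there phosphorylate eIF4E, the protein that binds the mRNA cap. MNK1 activity is known to respond strongly to upstream MAP kinases, whereas MNK2 is known for a higher basal activity. Their other reported substrates include hnRNP A1, the splicing factor SFPQ and the feedback inhibitor Sprouty2.

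All libraries came from HEK293, a human embryonic kidney cell line in wide laboratory use, and were made with a stranded kit. The study asked which mRNAs associate with eIF4A1 and eIF4A2, paralogous RNA helicases of translation, and how these mRNAs depend on the Ccr4-Not deadenylase complex, of which CNOT1 is the scaffold. In the first experiment, cells without siRNA gave RIP total RNA (n = 3) and RNA from native immunoprecipitation (IP) with antibodies to eIF4A1, eIF4A2 or DDX6, a helicase of mRNA decay and repression (n = 3 each). In the second, cells carrying a control siRNA or a CNOT1 siRNA were run on cycloheximide sucrose gradients, which gave input RNA before the gradient, subpolysomal RNA pooled from fractions 1 to 5 and polysomal RNA pooled from fractions 6 to 11 (n = 4 for each of the 6 groups). In the third, total RNA came from cells with a control siRNA or with siRNAs to both TNRC6A and TNRC6B, the GW182 proteins of microRNA silencing (n = 2 each). No IP with an unrelated antibody was analysed here. The labels do not say whether replicates were separate cultures, so p-values measure the spread between these libraries, which may be technical.

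Libraries held 15353317 to 46018900 counts on genes. CNOT1 mRNA fell from 672 ± 35.7 CPM in control siRNA input (SD, n = 4) to 39.6 ± 1.99 CPM in CNOT1 siRNA input (SD, n = 4, adjusted p 0.00673 in edgeR's quasi-likelihood test). CPM are a gene's counts brought to a common library total with the TMM scaling factors of edgeR. Among the polysomal libraries, the one labelled control siRNA replicate 3 held 28.3 CPM of CNOT1 and the one labelled CNOT1 siRNA replicate 3 held 631 CPM, against 470 to 501 in the other control libraries and 24.01 to 31.6 in the other CNOT1 siRNA libraries. These values go against the 2 labels. The labels were kept, and the main results of the polysomal libraries are given with and without both. The FDRs of input and subpolysomal RNA also rest on these libraries through the shared estimate of spread, and only some of them are given both ways. TNRC6A had 183 ± 7.35 CPM with control siRNA and 52.6 ± 17.1 with TNRC6A/B siRNA (SD, n = 2 each), and TNRC6B had 70.3 ± 3.84 and 22.0 ± 6.04. Neither passed the false discovery rate (FDR) threshold of 0.05 used throughout, and both had an FDR of 1 in edgeR's quasi-likelihood test.

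On build GRCh37, MKNK1 lies on the minus strand of chromosome 1 (chr1:47023079-47082515) and MKNK2 on the minus strand of chromosome 19 (chr19:2037464-2051243). The canonical MKNK1 transcript of the annotation has 2661 nt and that of MKNK2 3785 nt. The first bases of the coding sequences are shown with 12 bases of leader before them, and the capitals mark the start codon. They are a description, since the pooled gradient fractions do not show at which start codon ribosomes began. The MKNK1 window spans an exon junction (chr1:47059785-47059794 and chr1:47048982-47049001), and the MKNK2 window lies in 1 exon (chr19:2050833-2050862). Both are read from the minus strand.
MKNK1: aaacctatagagATGggcagtagcgaaccc
MKNK2: cccggacagaagATGgtgcagaagaaacca
Both windows have a G directly after the start codon. The base 3 before it is a G in MKNK1 and an A in MKNK2, so both genes have a purine there.

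The leaders were of similar length but of different composition. The 5′UTR of MKNK1 had 254 nt with 52.4% G and C, and that of MKNK2 had 245 nt with 84.5% G and C. The MKNK2 leader was richer in G and C than 97.2% of the 11842 tested coding genes with a 5′UTR of measurable composition, and the MKNK1 leader than 10.3% of them (median 67.5%). The 3′UTRs had 1168 nt in MKNK1 and 2142 nt in MKNK2, with 48.9% and 58.6% G and C against a median of 42.1%. The pentamer ATTTA, the core of AU-rich elements, occurred 0 times in the MKNK1 3′UTR and 1 time in that of MKNK2, where the median gene had 2. These letters are a description of 1 transcript per gene, and the counts do not tell isoforms apart.

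The 2 genes kept to different ranges over the 12 groups. MKNK1 group means lay between 30.9 ± 0.938 CPM in CNOT1 siRNA subpolysomal RNA (SD, n = 4) and 37.98 ± 2.51 CPM in RIP total RNA (SD, n = 3), and every pair of neighbours in the order of means overlapped in its libraries. MKNK2 group means ran from 41.5 ± 29.8 CPM in the control total RNA of the TNRC6 experiment (SD, n = 2) to 242 ± 41.6 CPM in the eIF4A1 IP (SD, n = 3). From low to high, the MKNK2 order between these ends was control siRNA input, control siRNA subpolysomal, control siRNA polysomal, CNOT1 siRNA polysomal, CNOT1 siRNA input, RIP total RNA, TNRC6A/B siRNA total RNA, eIF4A2 IP, CNOT1 siRNA subpolysomal and DDX6 IP. Neighbours overlapped at each step but 1, that from TNRC6A/B siRNA total RNA to the eIF4A2 IP, and these 2 groups belong to experiments that were scaled separately.

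**Figure D1:**
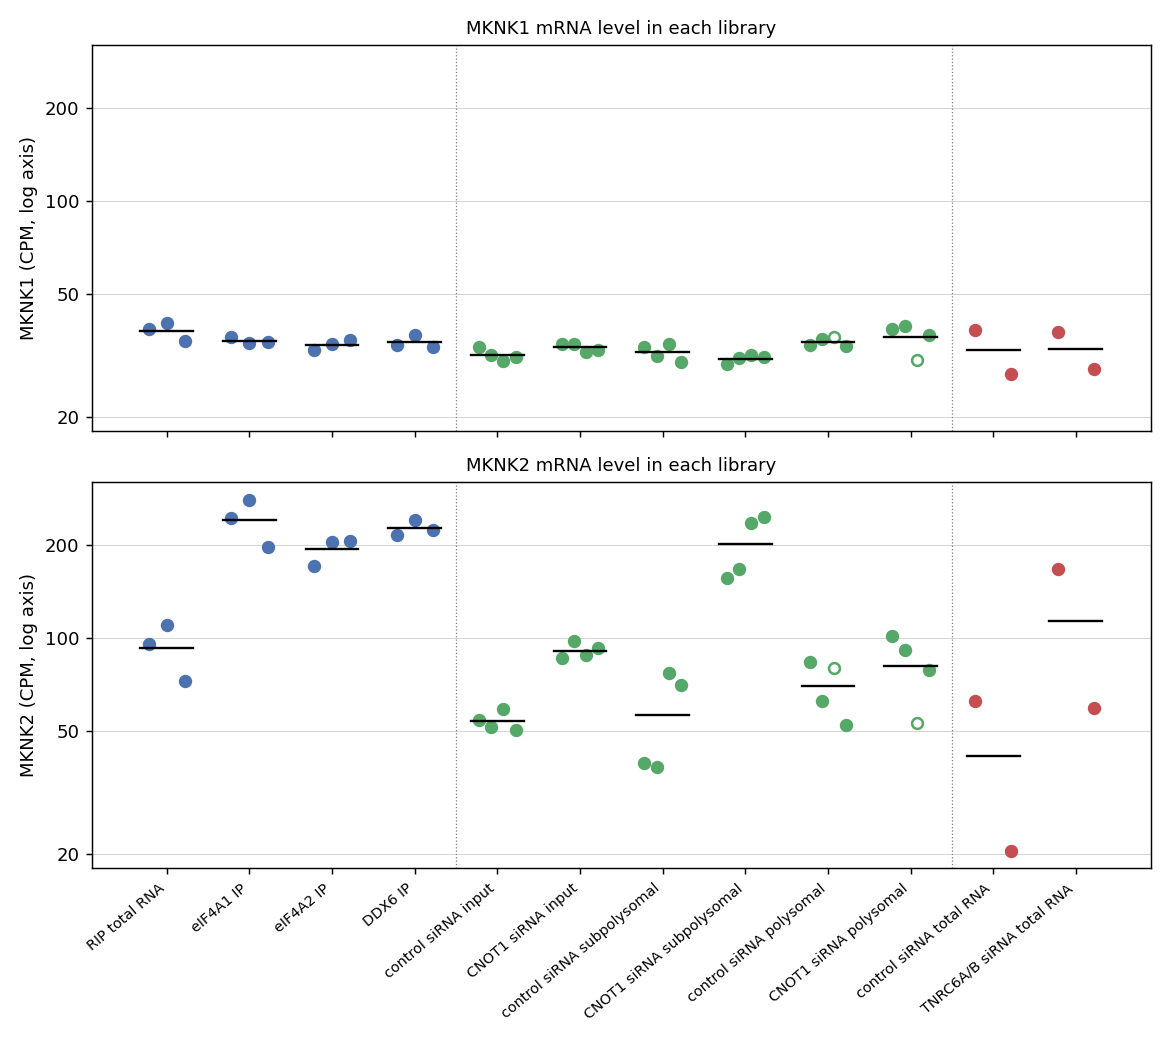
Levels of MKNK1 and MKNK2 in each library of the 12 groups, in TMM-scaled CPM on a log axis. Points are libraries, black lines are group means, and open points mark the 2 polysomal libraries labelled replicate 3; MKNK1 group means stay between 30.9 and 37.98 CPM, whereas those of MKNK2 run from 41.5 to 242 CPM.

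Per kilobase of canonical transcript, MKNK1 stood between 11.6 and 14.3 CPM per kb in the 12 group means. MKNK2 stood at 14.3 CPM per kb in control siRNA input, close to the 11.9 CPM per kb of MKNK1 there, and at 63.8 CPM per kb in the eIF4A1 IP. In this measure MKNK2 exceeded MKNK1 in 11 of the 12 groups, by up to 4.82-fold in the eIF4A1 IP, and reached 0.889 of it in the control total RNA of the TNRC6 experiment. These per-length levels assume the canonical transcript in every group.

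In the RIP experiment, the MKNK2 mRNA was enriched in all 3 IPs and the MKNK1 mRNA passed the test in none. In RIP total RNA, MKNK2 had 96.1, 110 and 72.9 CPM in replicates 1 to 3. It had 245, 281 and 198 CPM in the eIF4A1 IP, 171, 206 and 206 CPM in the eIF4A2 IP and 216, 241 and 224 CPM in the DDX6 IP. The lowest IP library exceeded the highest total RNA library. Groups separated in this direction for 29.5%, 28.5% and 29.3% of the 17474 tested genes in the eIF4A1, eIF4A2 and DDX6 comparisons.

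MKNK2 was 2.59-fold higher in the eIF4A1 IP than in total RNA (log2 fold change 1.38, SE 0.175, FDR 3.36e-05 in edgeR's quasi-likelihood test). It was 2.09-fold higher in the eIF4A2 IP (log2 1.06, SE 0.174, FDR 0.000228) and 2.44-fold higher in the DDX6 IP (log2 1.29, SE 0.175, FDR 9.18e-05). Among all genes, 26.1%, 24.5% and 22.7% were called higher in these IPs, and 52.6%, 50.3% and 46% were called in either direction. A larger log2 fold change than that of MKNK2 was found in 4.85%, 11% and 3.73% of genes. The 3 comparisons share the same total RNA libraries, so they do not stand for separate observations of the control level.

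MKNK1 had 38.5, 40.2 and 35.2 CPM in RIP total RNA. It had 36.4, 34.6 and 34.8 CPM in the eIF4A1 IP, 32.8, 34.4 and 35.5 CPM in the eIF4A2 IP and 34.2, 36.7 and 33.8 CPM in the DDX6 IP. Each IP overlapped total RNA. The log2 fold changes were -0.11 (SE 0.11, FDR 0.43), -0.15 (FDR 0.275) and -0.12 (FDR 0.38). Within same-numbered pairs, which deviated together in this experiment, MKNK1 was lower than total RNA in 3 of 3 pairs for the eIF4A1 and DDX6 IPs, as were 37.2% and 37.7% of genes, and in 2 of 3 for the eIF4A2 IP. With the replicate number as a block the FDRs were 0.324, 0.178 and 0.267, still past no threshold.

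Between the IPs, neither gene passed the test. MKNK2 was lower in the eIF4A2 IP than in the eIF4A1 IP by a log2 difference of -0.31 (SE 0.172, FDR 0.357), where 1.06% of genes were called, and the libraries overlapped. All 3 eIF4A2 IP libraries lay below all 3 DDX6 IP libraries, a separation seen for 20.5% of genes in that direction, and the log2 difference was -0.23 (FDR 0.367, with 21.1% of genes called). The DDX6 and eIF4A1 IPs differed by -0.09 for MKNK2 (FDR 0.855), where 0.0916% of genes were called. For MKNK1 the 3 log2 differences ran from -0.04 to -0.01, with FDRs of 0.876 to 0.969. A missed threshold with 3 libraries does not show that the IPs held the kinases' mRNAs alike.

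MKNK2 rose in input RNA after CNOT1 siRNA. The 4 control siRNA inputs had 54.4, 51.6, 59.3 and 50.5 CPM and the 4 CNOT1 siRNA inputs 86.1, 97.8, 88.5 and 92.7 CPM. The groups did not overlap, which 24.9% of the 16776 tested genes also showed in this direction. MKNK2 was 1.69-fold higher (log2 0.76, SE 0.212, FDR 0.0133 in edgeR's quasi-likelihood test), and 13.4% of genes were called higher and 29% in either direction. A larger log2 rise was found in 6.86% of genes. Per the study, input RNA came from aliquots of the lysates that were fractionated. This test and that of the count ratio below are therefore not independent of the fraction values that chose MKNK2. The fit shares its estimate of spread with the polysomal libraries, and without both libraries labelled replicate 3 the log2 fold change of MKNK2 was 0.76 (SE 0.191, FDR 0.00303), with 40.6% of genes called.

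MKNK1 had 33.6, 31.7, 30.3 and 31.1 CPM in control siRNA input and 34.4, 34.5, 32.5 and 33.0 CPM in CNOT1 siRNA input. The groups overlapped, and the log2 difference of 0.08 did not pass the test (SE 0.0902, FDR 0.494 in edgeR's test).

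The counts of the 2 genes were also set against each other within each library, a ratio that the scaling between libraries does not touch. In control siRNA input, MKNK2 had 1.62, 1.63, 1.95 and 1.62 counts for each MKNK1 count in replicates 1 to 4. In CNOT1 siRNA input it had 2.50, 2.84, 2.73 and 2.81. The groups did not overlap, and the mean ratio was 1.71 ± 0.166 (SD, n = 4) with control siRNA and 2.72 ± 0.151 (SD, n = 4) with CNOT1 siRNA. The difference was 0.68 on the log2 scale, a fold of 1.60, with an exact two-sided permutation p of 0.0286, the smallest that 4 against 4 libraries can give. The permutation did not keep same-numbered inputs together, although their deviations were correlated (0.195 to 0.358). The ratio does not add to the test above, since it is made of the same counts.

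In the other groups the ratio of MKNK2 to MKNK1 counts followed the MKNK2 level. It was 2.44 ± 0.342 in RIP total RNA and 6.86 ± 1.23 in the eIF4A1 IP, 5.67 ± 0.404 in the eIF4A2 IP and 6.51 ± 0.172 in the DDX6 IP (SD, n = 3 each). In the gradients it was 1.75 ± 0.636 in control and 6.52 ± 1.35 in CNOT1 siRNA subpolysomal RNA (SD, n = 4 each). In polysomal RNA it was 1.99 ± 0.416 and 2.21 ± 0.379 (SD, n = 4 each), and 1.92 ± 0.477 and 2.37 ± 0.258 without both libraries labelled replicate 3 (SD, n = 3 each). In the TNRC6 experiment it was 1.19 ± 0.635 with control siRNA and 3.26 ± 1.67 with TNRC6A/B siRNA (SD, n = 2 each). The libraries there gave 1.64 and 0.744 with control siRNA and 4.45 and 2.08 with TNRC6A/B siRNA.

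**Figure D2:**
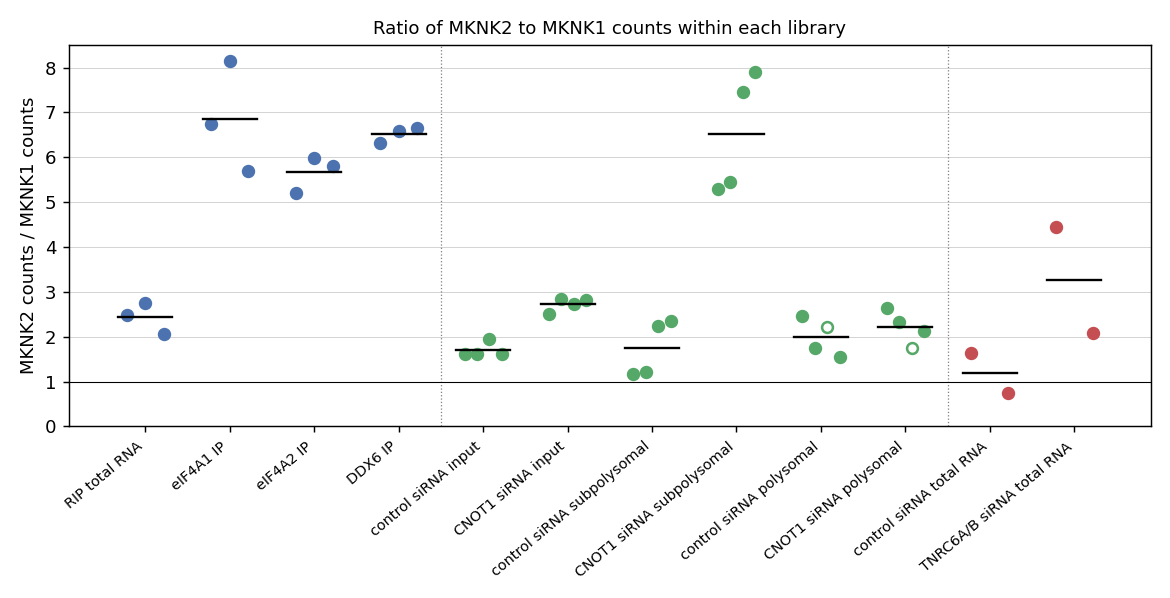
Ratio of MKNK2 to MKNK1 counts in each library of the 12 groups, with each library as a point, black lines at group means and open points for the polysomal libraries labelled replicate 3. The CNOT1 siRNA inputs lie between 2.50 and 2.84, above the control siRNA inputs at 1.62 to 1.95, and the means of the IPs and of CNOT1 siRNA subpolysomal RNA lie between 5.67 and 6.86.

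The gradient fractions, whose values chose MKNK2, are described without a test. CPM are shares of each fraction's library, and the amount of RNA in a fraction is not known from them. With control siRNA, MKNK2 had 39.6, 38.5, 77.1 and 70.7 CPM in subpolysomal RNA. With CNOT1 siRNA it had 157, 168, 237 and 246 CPM there. All 4 CNOT1 siRNA libraries lay above all 4 control libraries, and in both groups replicates 1 and 2 lay below replicates 3 and 4. The log2 fold change was 1.84, or 3.58-fold, and 54 of 16776 genes (0.322%) had a larger one. In this comparison 13% of genes were called higher, and the groups separated in this direction for 11.5%.

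In polysomal RNA, MKNK2 had 84.1, 62.7, 80.4 and 52.3 CPM in the libraries labelled control siRNA and 102, 91.6, 53.1 and 78.9 CPM in those labelled CNOT1 siRNA. The groups overlapped, and the log2 fold change was 0.22, or 1.16-fold. Without both libraries labelled replicate 3, the means were 66.3 ± 16.2 and 90.7 ± 11.4 CPM (SD, n = 3 each) and the log2 fold change was 0.45. The 3 libraries of each group still overlapped. With any 1 library left out the value ran from 0.09 (without CNOT1 siRNA replicate 1) to 0.38 (without the library labelled CNOT1 siRNA replicate 3). No gene was called in the polysomal comparison with all libraries (0%, with 1123 genes at an unadjusted p under 0.05 and 0 called by DESeq2), and 31.7% were called without both libraries.

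MKNK1 stayed between 29.6 and 39.4 CPM in the fraction libraries. It had 33.7, 31.6, 34.5 and 30.03 CPM in control siRNA and 29.6, 30.9, 31.8 and 31.1 CPM in CNOT1 siRNA subpolysomal RNA. In polysomal RNA it had 34.2, 35.6, 36.4 and 33.9 CPM with control siRNA and 38.4, 39.4, 30.5 and 36.9 CPM with CNOT1 siRNA. The third of these last 4 values, from a library whose CNOT1 count goes against its label, was the lowest, and without both libraries labelled replicate 3 the means were 34.6 ± 0.929 and 38.2 ± 1.24 CPM (SD, n = 3 each). The CNOT1 siRNA libraries then all exceeded the control libraries, as for 25.8% of genes. The log2 fold changes after CNOT1 siRNA were -0.07 in subpolysomal RNA and 0.05 in polysomal RNA, the latter 0.14 without both libraries.

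The position of each mRNA on a gradient was read as the log2 ratio of polysomal to subpolysomal CPM, with 0.5 CPM added to both. The 2 fractions were joined into gradients by replicate number. Deviations of same-numbered fractions correlated at -0.44 to 0.185 with control siRNA, with 1 of 4 over 0.1. With CNOT1 siRNA they correlated at -0.233 to -0.118, with 0 of 4 over 0.1. The numbers are thus not shown to pair the fractions, and the values per gradient and their SDs depend on this joining. For MKNK2 the 4 control gradients gave 1.08, 0.70, 0.06 and -0.43, a mean of 0.35 ± 0.67 (SD, n = 4), and the 4 CNOT1 siRNA gradients gave -0.62, -0.87, -2.15 and -1.64, a mean of -1.32 ± 0.701 (SD, n = 4). Every CNOT1 siRNA gradient lay below every control gradient, a separation in this direction that 3.18% of the 16776 genes showed. Without replicate 3 the means were 0.45 ± 0.786 and -1.04 ± 0.529 (SD, n = 3 each), and the groups still did not overlap, as for 11.4% of genes. In the ranking of all these genes by mean ratio, 35.3% of genes stood more polysomal than MKNK2 with control siRNA and 92.5% with CNOT1 siRNA, or 30.2% and 86.1% without replicate 3. In the model the ratio changed by -1.62 on the log2 scale, with 68 genes showing a larger fall, and by -1.40 without both libraries. In all 5.66% of genes were called for this change, 2.4% of them lower and 3.26% higher as shares of all genes, and 17.5% were called without both libraries.

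For MKNK1 the same ratios were 0.02, 0.17, 0.08 and 0.17 in the control gradients and 0.37, 0.34, -0.06 and 0.24 in the CNOT1 siRNA gradients. Replicate 3 was the lowest of the second group, and the means were 0.11 ± 0.075 and 0.22 ± 0.197 (SD, n = 4 each). Without replicate 3 they were 0.12 ± 0.087 and 0.32 ± 0.068 (SD, n = 3 each), and all CNOT1 siRNA gradients then lay above all control gradients, which 18.1% of genes showed. MKNK1 ranked near the middle of all genes in both conditions, with 44.5% and 40% of genes standing more polysomal, or 42.8% and 37.5% without replicate 3. In the model the ratio of MKNK1 changed by 0.13 after CNOT1 siRNA, against the -1.62 of MKNK2, and by 0.22 without both libraries, against -1.40.

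**Figure D3:**
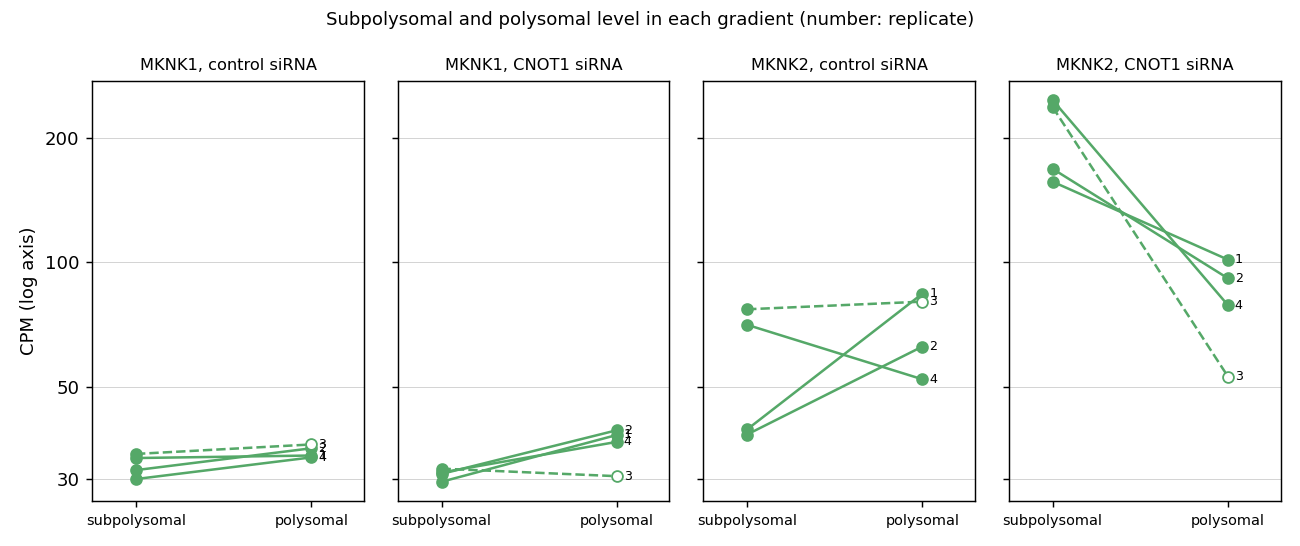
Levels of MKNK1 and MKNK2 in subpolysomal and polysomal RNA of each gradient, in CPM on a log axis. Lines join libraries by replicate number, which is not shown to pair them, and dashed lines with an open polysomal point mark replicate 3. MKNK2 lines fall from subpolysomal to polysomal RNA in all 4 CNOT1 siRNA gradients, from 157 to 246 CPM down to 53.1 to 102 CPM, whereas MKNK1 lines stay between 29.6 and 39.4 CPM.

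In the TNRC6 experiment, MKNK2 had 62.6 and 20.5 CPM with control siRNA and 167 and 59.5 CPM with TNRC6A/B siRNA. Replicate 1 exceeded replicate 2 in both groups, and the highest control library lay above the lowest TNRC6A/B siRNA library, so the groups overlapped. Between same-numbered libraries, MKNK2 rose from 62.6 to 167 CPM in replicate 1 and from 20.5 to 59.5 CPM in replicate 2. How many of all genes rose in both was not counted. The log2 fold change was 1.45 (SE 0.727, unadjusted p 0.105, FDR 1 in edgeR's quasi-likelihood test), and 19 of the 14064 tested genes (0.135%) had a larger one. In this comparison 0% of genes were called by edgeR, with 289 at an unadjusted p under 0.05, and DESeq2 called 6 higher and 2 lower. Leaving out replicate 1 gave a MKNK2 value of 2.46 for the control library and 0.51 for the TNRC6A/B siRNA library, and leaving out replicate 2 gave 0.91 and 2.02, with no fit past the threshold (FDR 0.582 to 1, the lone library being taken to vary like the other group). MKNK2 did pass without the filter on low counts (log2 1.49, FDR 0.00547), a fit that called 20 genes higher and 3 lower of 24928 (0.0923%). It also passed with the replicate number as a block, which the labels do not explain (log2 1.47, SE 0.17, FDR 4.67e-15, 1 residual degree of freedom), a fit that called 520 genes higher and 243 lower of 14064 (5.43%). With 1 residual degree of freedom, this FDR rests mostly on the spread of other genes and hardly measures that of MKNK2.

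MKNK1 had 38.1 and 27.6 CPM with control siRNA and 37.7 and 28.6 CPM with TNRC6A/B siRNA. As for MKNK2, replicate 1 exceeded replicate 2 in both groups. The log2 fold change was 0.01 (SE 0.294, FDR 1).

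**Figure D4:**
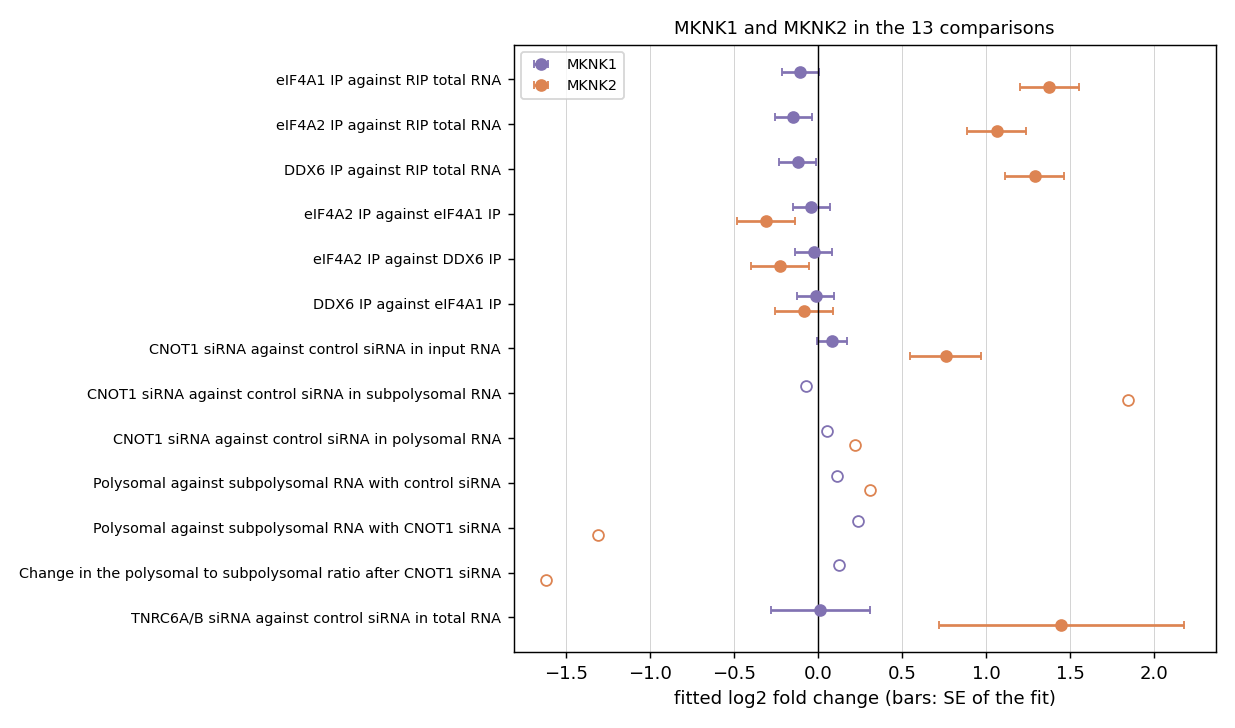
Log2 fold changes of MKNK1 and MKNK2 in the 13 comparisons; filled points with bars of 1 standard error are the comparisons tested with edgeR, and open points without bars are those of the gradient fractions, given as description. MKNK2 stands at 1.06 to 1.38 in the 3 IPs against total RNA, at 0.76 in input RNA and at 1.84 in subpolysomal RNA after CNOT1 siRNA, whereas MKNK1 lies between -0.15 and 0.23 throughout.

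Neighbouring genes were read to see whether shared loci could carry reads into these rows. MOB3C lies inside the MKNK1 locus on the same strand over 9093 bp and had 0.232 to 1.01 CPM in the group means. MKNK1-AS1 overlaps MKNK1 by 12849 bp on the opposite strand and was at 0 to 0.0404 CPM, and KNCN, 5759 bp away, at 0 to 0.00759 CPM. The nearest listed gene to MKNK2, MOB3A, lies 19791 bp away on the same strand. It rose from 8.87 ± 0.622 to 22.0 ± 1.42 CPM in input RNA after CNOT1 siRNA (log2 1.31, FDR 0.00673 in edgeR's test). How the counting treated reads in overlapping genes was not tested.

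The genes whose log2 CPM followed each kinase most closely were found over the 40 libraries, centred within each experiment, among 9692 genes with a mean of at least 10 CPM. These are descriptions over libraries that share groups and depth. For MKNK2 they were FAM102A (Pearson's r 0.931), TMEM184B (0.927), MAP3K3, a kinase of the MAP kinase cascades (0.92), LIMK1, a kinase of cofilin (0.899), and EPHB4, an ephrin receptor (0.896). For MKNK1 they were TTC38 (0.835), RRP9 (0.834), RELA, a subunit of NF-κB (0.832), DPF2 (0.83) and FPGS (0.825). MKNK1 and MKNK2 correlated with each other at 0.091.

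The genes around the kinases were counted in 6 lists holding 59 genes, of which EIF4EBP3 and MMP3 passed the filter in no experiment and SPRY4 only in the gradients. The lists hold the ERK and p38 cascades that activate the MNKs (16 genes), eIF4E with its partners and the eIF4G scaffolds (10), other MNK substrates (5), other kinases activated by MAP kinases (9), negative regulators of MAP kinase signalling (14) and mRNAs reported to depend on eIF4E phosphorylation (5). In the eIF4A1 IP, 18 of 56 tested genes were higher than total RNA and 15 lower. In the eIF4A2 IP 19 were higher and 16 lower, and in the DDX6 IP 21 were higher and 11 lower. These shares are read against the 26.1%, 24.5% and 22.7% of all genes called higher and the 26.5%, 25.8% and 23.3% called lower.

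Among the upstream kinases, 5, 4 and 5 of 16 were higher and 4, 5 and 3 lower in the eIF4A1, eIF4A2 and DDX6 IPs, with median log2 fold changes of -0.06, -0.08 and 0.03 against 0.04, 0.01 and 0.01 over all genes. MAPK12, the p38γ kinase, rose by 1.37, 1.51 and 0.95 on the log2 scale. MAP2K3, a p38 activator, rose by 1.09 in the eIF4A1 IP and by 1.13 in the DDX6 IP. The other MAP kinase-activated kinases had 4, 3 and 3 of 9 higher and 2 lower in each IP (medians 0.35, 0.35 and 0.51), with RPS6KA2, an RSK kinase, up by 1.37, 1.32 and 1.20.

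The substrate and scaffold of the MNKs gave mixed values in the IPs. EIF4E had log2 fold changes of -0.43, -0.40 and 0.11 (FDR 0.0713, 0.0901 and 0.657). EIF4G1 was at 0.00 in the eIF4A1 IP (FDR 0.992) and rose by 0.95 in the eIF4A2 IP (FDR 0.032, lost in 4 of 11 alternatives) and by 1.52 in the DDX6 IP (FDR 0.003). EIF4G3 fell by 0.58 in the eIF4A1 IP (FDR 0.038, lost in 5 of 11 alternatives) and rose by 0.60 in the DDX6 IP (FDR 0.0371), while EIF4G2 passed in none (0.22, 0.34 and 0.13). In this list 2, 2 and 4 of 9 genes were higher and 3, 2 and 0 lower. EIF4EBP1, an inhibitor of eIF4E, fell by 1.80 in the eIF4A2 IP, and EIF4E2, the cap-binding homologue 4EHP, fell by 0.58 in the eIF4A1 IP (lost in 2 of 11 alternatives).

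Of the other MNK substrates, 1 of 5 was higher and 4 lower in every IP (medians -1.002, -1.15 and -0.93). PLA2G4A, cytosolic phospholipase A2, fell by 1.58, 1.49 and 1.39, and SPRY2 rose by 1.38 in the eIF4A2 IP. Of the negative regulators, 6, 7 and 7 of 13 were higher and 2 lower in each IP (medians 0.37, 0.45 and 0.33), with the phosphatase DUSP7 up by 1.27 in the eIF4A1 IP and 1.11 in the DDX6 IP. PPP2R1A, a scaffold subunit of phosphatase PP2A, fell by 1.71, 1.93 and 1.35. The mRNAs reported to depend on eIF4E phosphorylation had 0, 2 and 1 of 4 higher and 0, 1 and 0 lower (medians 0.12, 0.41 and 0.28).

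Between IPs, 1 of 56 listed genes was called in eIF4A2 against eIF4A1, EIF4ENIF1, a transporter of eIF4E (log2 0.70, FDR 0.0437, lost in 6 of 11 alternatives). With the replicate block 15 were called, and over all genes 1245 were higher and 1521 lower (15.8% in all) against 170 and 15 without it. In eIF4A2 against DDX6, 8 were higher and 10 lower, where 21.1% of all genes were called, or 30 in all with the block, which called 40.5% of all genes. Without the block MAPK11 was higher by 1.10, whereas MAPK3, of the same list, had a log2 difference of -1.08 and EIF4EBP1 of -1.81. In DDX6 against eIF4A1 none of 56 was called (0 by edgeR, 6 by DESeq2 and 12 with the block). Over all genes these fits called 0.0916%, 3.1% and 9.9%, and edgeR had 2438 genes at an unadjusted p under 0.05.

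In input RNA after CNOT1 siRNA, 11 of 57 listed genes rose and 8 fell, where 13.4% of all genes rose and 15.6% fell. The negative regulators had the most calls, with 6 of 14 higher and 1 lower and a median log2 fold change of 0.38, against -0.03 over all genes. DUSP16, a phosphatase of JNK and p38, rose by 0.93 (FDR 0.00673) and DUSP4 fell by 1.01 (FDR 0.00673). Of the upstream kinases 2 of 16 rose and 3 fell (median -0.14), with NRAS down by 0.65 (FDR 0.0139) and MAP2K3 up by 0.46 (FDR 0.0477, lost in 9 of 15 alternatives).

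EIF4E did not pass in input RNA (log2 0.28, FDR 0.0982), nor did EIF4G1 (0.13), EIF4G2 (0.00) or EIF4G3 (-0.07). In their list 0 of 9 rose and 2 fell (median -0.07), EIF4EBP2, an inhibitor of eIF4E, by 1.20 (FDR 0.0191) and EIF4E3 by 0.83 (FDR 0.0164). Of the other substrates SPRY2 rose by 0.62 (FDR 0.0123) and HNRNPA1 fell by 0.56 (FDR 0.00777), the 2 calls among 5 (median -0.24). Of the other kinases, MAPKAPK2, a p38 target, fell by 0.63 (FDR 0.0177) and RPS6KA1 rose by 0.36 (FDR 0.0375, lost in 9 of 15 alternatives), the 2 calls among 9 (median 0.05). The phosphorylation-dependent mRNAs had 1 of 4 higher (median 0.05). Without both polysomal libraries labelled replicate 3, 14 listed genes rose and 14 fell, against 19.6% and 21.1% of all genes. The listed genes named as called in input RNA stayed called in that fit. Their FDRs were lower there, such as 0.0104 for MAP2K3, 0.00222 for RPS6KA1 and 1.72e-08 for DUSP16 in edgeR's test.

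In subpolysomal RNA after CNOT1 siRNA, 16 of 57 listed genes rose and 8 fell, where 13% of all genes rose and 19.1% fell, 32.2% in either direction. The other MAP kinase-activated kinases had 4 of 9 higher and 0 lower (median 0.39, against -0.07 over all genes), with RPS6KA1 up by 0.82 and RPS6KA3 by 0.44. The upstream kinases had 5 of 16 higher and 2 lower (median 0.17), with MAP2K3 up by 0.65, and the negative regulators 5 of 14 higher and 1 lower (median 0.31), with DUSP7 up by 1.20. In the eIF4E list EIF4G2 rose by 0.35 and EIF4G3 fell by 0.41, the 2 calls among 9 (median 0.16), and EIF4E had 0.27 (FDR 0.103) and EIF4G1 0.16 (FDR 0.377). HNRNPA1 fell by 0.83 and SFPQ by 0.53, among 1 higher and 2 lower of 5 substrates (median -0.01), and MCL1, an anti-apoptotic protein, and NFKBIA, the NF-κB inhibitor, fell by 0.33 and 0.36 among 4 (median -0.18, each call lost in 3 of 15 alternatives). Without both polysomal libraries labelled replicate 3, 17.7% of all genes rose and 24.3% fell in subpolysomal RNA. The genes named here as called stayed called, with FDRs up to the 0.00735 of NFKBIA in edgeR's test.

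In polysomal RNA none of the 57 listed genes was called (0 by edgeR), and without both libraries labelled replicate 3, 13 rose and 9 fell, against 17.1% and 14.6% of all genes. The change in the polysomal to subpolysomal ratio was called for 3 of 57 and for 5.66% of all genes, higher for HNRNPA1 (log2 0.69) and lower for MAPKAPK2 (-0.91) and RPS6KA1 (-0.66), and these calls were lost in 9, 13 and 7 of 23 alternatives. All 3 stayed called without both libraries labelled replicate 3. There HNRNPA1 was at 0.45 (FDR 0.047), MAPKAPK2 at -1.29 (FDR 2.46e-05) and RPS6KA1 at -0.42 (FDR 0.0374) in edgeR's test. Without both libraries 7 were higher and 7 lower, where 17.5% of all genes were called, and DESeq2 called 10, where it called 8.83% of all genes. EIF4E had a ratio change of -0.10 (FDR 0.807), EIF4G1 of -0.02 (FDR 0.963), EIF4G2 of -0.39 (FDR 0.0978) and EIF4G3 of 0.50 (FDR 0.0753). Without both libraries the values were 0.0068 (FDR 0.989), 0.18 (FDR 0.501), -0.42 (FDR 0.0456) and 0.56 (FDR 0.00316), so that EIF4G2 and EIF4G3 passed. After TNRC6A/B siRNA none of 56 listed genes was called (0 by edgeR and 0 by DESeq2), and EIF4E had a log2 fold change of 0.03.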

How the data were processed

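The analysis used the authors' deposited counts, whole numbers of reads per gene symbol in 1 file per library, not normalized. Per the labels and the study's methods, poly(A) RNA libraries of the TruSeq stranded kit were demultiplexed with bcl2fastq 2.0, aligned to hg19 with TopHat2 and counted with HTSeq; the strand option and the other versions are not given in the sources used here. A merged table of the authors' fold changes and p-values was not used. Rows that name no gene were left out.

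Each experiment was fitted once with edgeR 4.0.16 (TMM scaling, filterByExpr, quasi-likelihood test) in R 4.3.3, over 17474 (RIP), 16776 (gradient) and 14064 (TNRC6) genes, with Benjamini-Hochberg adjustment over all genes and a call at FDR below 0.05. The pipeline was tested on simulated data. Alternatives were DESeq2 1.42.0, its size factors as RLE scaling, no filter, a replicate block, only the compared libraries, and leaving out libraries. Depth of 15353317 to 46018900 counts per library limits the precision of low genes more than that of the kinases. In the RIP experiment, all 18 correlations of same-numbered libraries' deviations from their group means were over 0.1 (0.184 to 0.782). Those of other-numbered libraries had a median of -0.239. RIP total RNA replicate 1, however, correlated with replicates 1 and 2 of the eIF4A1 IP at 0.262 and 0.274. With those of the DDX6 IP it correlated at 0.226 and 0.229. The numbers thus pair these libraries only in part, and the labels do not say why. Same-numbered correlations were also over 0.1 between control and CNOT1 siRNA inputs (0.195 to 0.358) and between control and CNOT1 siRNA subpolysomal libraries (0.586 to 0.736), 4 pairs each. In subpolysomal RNA, replicates 1 and 2 also correlated across the siRNAs (0.446 and 0.505), as did replicates 3 and 4 (0.468 and 0.308). Replicates 1 and 2 against 3 and 4 gave -0.661 to -0.433, so these libraries fell into 2 sets rather than only into numbered pairs. In the TNRC6 experiment same-numbered libraries correlated at 0.862 and the others at -0.862. With 2 libraries per group these are 1 value up to its sign.

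The members, lists and rules were chosen with earlier results of these data known. Besides the kinases, the text names the siRNA targets, eIF4E and the eIF4Gs, genes at the 2 loci, up to 2 called genes per list and comparison with a mean of at least 10 CPM and the largest change, of which the main ones are given, and the 5 genes most correlated with each kinase. EIF4G3 in the DDX6 IP belongs to the eIF4G values. Sequences and gene structure came from GENCODE's annotation on GRCh37.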

Additional observations from a re-analysis of the deposited data

How the results depend on the processing

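MKNK2 stayed called in the 3 IPs against total RNA under each of the 11 alternatives of each comparison (log2 1.23 to 1.52 for eIF4A1, 0.91 to 1.20 for eIF4A2 and 1.14 to 1.43 for DDX6) and in input RNA after CNOT1 siRNA under each of 15 (0.72 to 0.81). With any 1 input left out, the log2 difference of the MKNK2 to MKNK1 ratio was 0.65 to 0.74; its exact permutation p is at the smallest value each design allows and says nothing of stability. The change of MKNK2 in the polysomal to subpolysomal ratio ranged from -1.81 to -1.40. Directions turned for differences near 0: with 1 library left out, MKNK1 ranged from -0.057 to 0.0068 for eIF4A2 against DDX6, from -0.052 to 0.0094 for DDX6 against eIF4A1 and from -0.20 to 0.26 after TNRC6A/B siRNA, and MKNK2 from -0.21 to 0.066 for DDX6 against eIF4A1. Without the filter MKNK1 in polysomal RNA was at -0.003308, and its control polysomal to subpolysomal difference was 0.033 with only the compared libraries. MKNK2 after TNRC6A/B siRNA passed the threshold without the filter (1.49, FDR 0.00547, with 0.0923% of genes called) and with the replicate block (1.47, FDR 4.67e-15, with 5.43% called). The FDR of the blocked fit rests mostly on the spread of other genes. Listed genes called, with the share of all genes the same fit called, came to 2 (4.01%) with DESeq2 and 15 (15.8%) with the replicate block for eIF4A2 against eIF4A1, to 6 (3.1%) and 12 (9.9%) for DDX6 against eIF4A1, to 30 (40.5%) with the block for eIF4A2 against DDX6, to 22 (31.7%) in polysomal RNA and 14 (17.5%) for the ratio change without both libraries labelled replicate 3, and to 10 (8.83%) for the ratio change with DESeq2. The causes were not tested. The replicate block changed no call of either kinase in the RIP or input comparisons. Control and CNOT1 siRNA polysomal libraries had 1 of 4 same-number correlations over 0.1 (-0.562 to 0.102), so their numbers are not shown to pair them. The blocked gradient fit called 2426 genes higher and 2906 lower in input RNA against 2245 and 2614, and 21 and 25 listed genes in input and subpolysomal RNA against 19 and 24. The blocked list counts were added after the data were seen.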
